A study of Mus musculus with 16 samples.

Results

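The genes described here are 35 interferon-stimulated genes of the mouse that lie outside the large interferon-induced families (the OAS, GBP, IRG, IFIT, IRF, Ly6, Schlafen and class I genes). They were chosen by symbol and with earlier results of these data known, so a share of members set beside that of all genes is no independent test. All 35 have a row, by Ensembl identifier, among the 54331 genes of the table. Primary lung fibroblasts from C57BL/6 mice were infected for 72 h with an adenovirus (AdV). The 8 libraries are ST2 KO cells with AdV-FLIL33 (KO FL, 1 library), AdV-MIL33 (KO M, 1 library) or AdV-NULL (KO NULL, 2 libraries), and wild-type cells with the same vectors (WT FL, WT M and WT NULL, with 1, 1 and 2 libraries). FL codes for full-length IL-33, M for its mature form and NULL for no protein, and ST2 is the IL-33 receptor, encoded by Il1rl1. Every group carried an adenovirus, and no uninfected cells were analysed here. The labels give no age and do not say whether the NULL libraries came from separate animals or cultures, so a p-value here speaks only of how far these libraries scatter, which may be technical. The table assigned by the labels to unseparated lung cells repeats the fibroblast table under the same column titles, so the cell type rests on those titles.

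Interferons are cytokines released when cells sense viral nucleic acid. They bind surface receptors, and the kinases Jak1 and Tyk2 pass the signal to a complex of transcription factors that binds the interferon-stimulated response element (ISRE) in target promoters. The products block virus entry, replication and release, or tune the signal itself. Fibroblasts of the lung respond to interferon and to adenovirus in this way.

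The 8 libraries held 2.39e+07 to 2.92e+07 normalized counts and 22193 to 23645 genes above 0. The targeted gene Il1rl1 was at 79.2 (FL), 85.2 (M), 73.1 and 69.2 (NULL) in the libraries labelled KO and at 33.9 (FL), 70.7 (M), 18.3 and 106 (NULL) in those labelled WT, so its count does not separate the genotypes, which rest on the labels. The deleted part of the gene is not given in the sources used here, and a count over the whole gene can include transcript outside it. Il33 was at 1080221 (FL), 81109.9 (M), 216 and 214 (NULL) in KO and 593839.6 (FL), 248956 (M), 193 and 201 (NULL) in WT libraries, high in all 4 libraries with an insert. The 10 fibroblast markers summed to 979727 to 1047269 in KO and 738715 to 1400662 in WT libraries: Col1a1, a collagen chain, ran from 217130.4 to 381061 normalized counts. The 10 macrophage and monocyte markers summed to 20046 to 22743 in KO libraries and to 19183 to 44883 in WT libraries, the highest being WT M. In that library 9 of the 9 tested macrophage markers and 5 of 5 mesothelial markers were higher than in the WT NULL pair, and 8 of 10 fibroblast markers were lower (limma, adjusted p below 0.05, which 22.5% of all tested genes passed upward and 26.8% downward). The mesothelial markers summed to 387 to 563 in KO and to 900 to 3654 in WT libraries, though Krt19 and Lrrn4 were higher in both KO NULL than in both WT NULL libraries. The 6 endothelial markers summed to 197 to 237 in KO and 386 to 446 in WT. Of these, Pecam1, Cdh5 and Cldn5 were lower in every KO than in every WT library, and Kdr and Vwf overlapped. Tek was higher in every KO library, at 35.7 to 43.7, against 18.3 to 28.9 in WT. The 7 alveolar and airway epithelial markers summed to 16.4 to 259 in KO and 267 to 1288 in WT. Of the 7 plasmacytoid dendritic cell markers, Siglech and Klk1 were listed at 0 in all 8 libraries, and Ccr9 and Ly6d at 3.88 or less. Tcf4 was at 1389 to 2473, Irf8 at 148 to 450 (highest in WT M) and Cox6a2 at 35.2 to 81.4. The list summed to 2472 to 2749 in KO and 1876 to 2619 in WT, most of it Tcf4. Of the 8 T and B cell markers, Cd3e was listed at 0 in all 8, and the list summed to at most 33.4. The part of these cell types in the results below was not tested, and in bulk RNA fewer cells of a type and less RNA per cell cannot be told apart.

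Promoter sequences of RefSeq (GRCm38.p6) were at hand for 27 of the 35 genes. The 250 bases before the annotated start were searched for the ISRE core (GAAA, any 2 bases, then GAAA) on either strand, counting overlapping matches, and 5 of 27 members held it (18.5%), against 3.46% of all 27025 genes with a promoter sequence. They were Isg15, Bst2, Rsad2, Trim30a and Lgals9. The 80 bases around the match are shown for these 5, on the strand of the gene from 5′ to 3′, with the match in capitals, since the first 4 belong to members that rose in KO NULL cells and the last to a member that did not.

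Isg15, chr4:156200847-156200926 (- strand): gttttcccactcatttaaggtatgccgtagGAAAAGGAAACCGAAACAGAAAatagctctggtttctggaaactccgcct
Bst2, chr8:71537553-71537632 (- strand): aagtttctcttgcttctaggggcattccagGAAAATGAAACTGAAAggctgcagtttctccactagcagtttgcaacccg
Rsad2, chr12:26456523-26456602 (- strand): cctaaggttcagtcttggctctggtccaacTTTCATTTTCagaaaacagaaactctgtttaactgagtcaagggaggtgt
Trim30a, chr7:104465194-104465273 (- strand): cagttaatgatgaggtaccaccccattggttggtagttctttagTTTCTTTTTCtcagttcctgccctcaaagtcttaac
Lgals9, chr11:78984930-78985009 (- strand): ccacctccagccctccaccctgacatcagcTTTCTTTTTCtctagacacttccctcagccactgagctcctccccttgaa

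Isg15 held 3 overlapping matches, with first bases 78 to 66 bases before the start, and Bst2 held 2, at 130 to 124 bases. Rsad2, Trim30a and Lgals9 held 1 each, at 120, 36 and 55 bases. The same bases were also searched for the GAS letters (TTCNNNGAA, N for any base) and the NF-kB letters (GGGNNTTTCC). GAS was in 2 of 27 members (7.41%, against 8.13% of all genes) and NF-kB in 1 (3.7%, against 1.65%). A match describes letters, and its absence says only that these letters are not in this window.

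The first comparison sets KO cells against WT cells, both given the empty vector. Genotype cannot be told apart here from the animal or culture of origin, which the labels do not give. Most members were higher in KO NULL than in WT NULL cells: 20 of 35 rose, 1 fell (Ifi27) and 14 did not pass the threshold (limma on log2(normalized count + 1) in a fit with 4 groups, KO or WT with IL-33 or NULL, adjusted p below 0.05 over 15527 genes). Over all tested genes 4.28% passed, 2.58% upward and 1.7% downward. The median log2 difference over the 35 members was 0.80, against -0.0022 over all tested genes, and 33 of 35 had a positive sign. Both KO NULL libraries lay above both WT NULL libraries for 32 members (33.8% of all tested genes) and below them for 2, Ifi27 and Lgals9 (34.6%). All 35 members passed the filter of a mean of at least 10 normalized counts. The largest rises were those of Trim30a (8.81-fold), Rsad2 (4.33-fold), Phf11d (4.16-fold), Cmpk2 (2.96-fold) and Usp18 (2.87-fold). The spread in this fit includes the difference between FL and M, and the count of 21 was 32 without WT FL or without WT M, where 32.3% and 32.5% of all genes passed. Fewer members passed without any single NULL library, which leaves 1 library in that group, and a smaller share of all genes passed too. The members' median log2 difference was then 0.81 without KO NULL 1, 0.79 without KO NULL 2, 0.75 without WT NULL 1 and 0.83 without WT NULL 2. Ifi27, Ifi44, Parp14, Phf11d, Trim30a and Usp18 passed under every alternative run here. The alveolar and airway epithelial markers summed to 17.8 and 16.4 in KO NULL and to 1288 and 1009 in WT NULL libraries, with 3 of 4 tested lower in KO, and their part in the members' values was not tested.

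**Figure D1:**
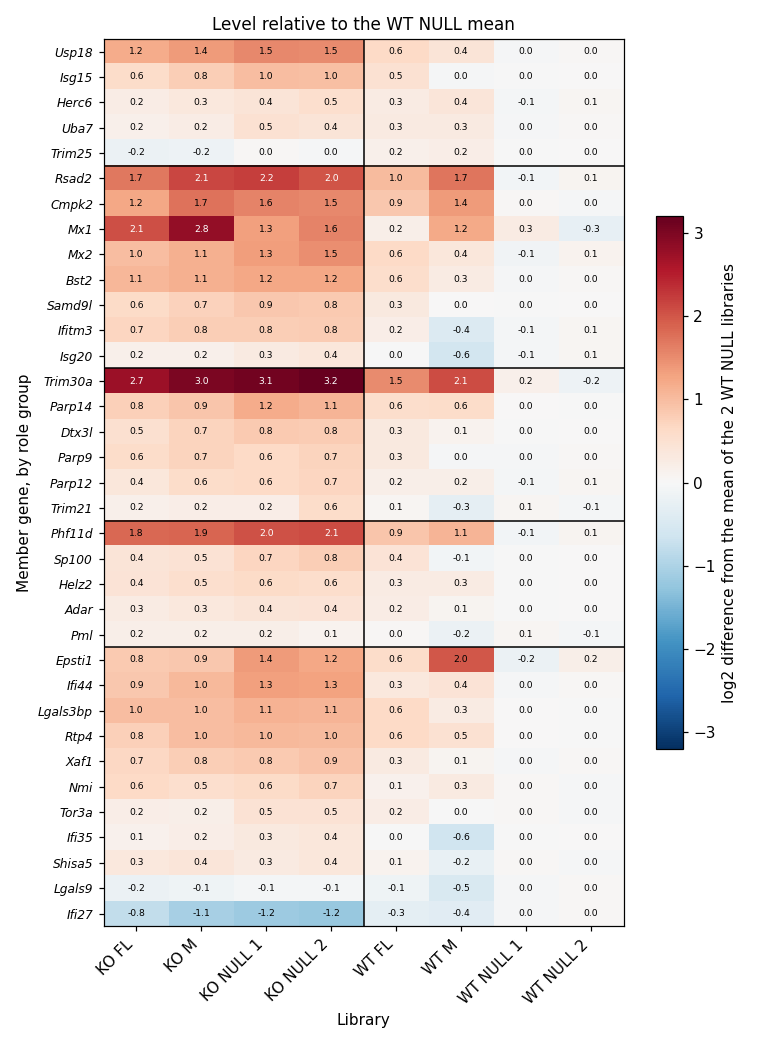
Level of each of the 35 members (down the page, by role group) in each library (across, KO left of WT), as the log2 difference from the mean of the WT NULL libraries on the log2(value + 1) scale. Red is higher and blue lower, and Ifi27 at the foot runs against the other members, at -0.8 to -1.2 in KO libraries.

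The ISG15 system attaches the ubiquitin-like protein Isg15 to other proteins, with Uba7 as activating enzyme and Herc6 as the main ligase in the mouse, while Usp18 removes it and also restrains the type I interferon receptor. Isg15 was at 5998 (FL), 6917 (M), 8015 and 7754 (NULL) normalized counts in KO libraries, against 5630.4 (FL), 3915 (M), 3965 and 4051 (NULL) in WT libraries. The lowest KO library lay above the highest WT library, the 2 being KO FL and WT FL. With NULL virus the rise was 1.97-fold (log2 0.98, SE 0.17, limma adjusted p = 0.0268). Usp18 stood at 2289 (FL), 2570.0 (M), 2919 and 2871 (NULL) in KO and at 1556 (FL), 1338 (M), 988 and 1027 (NULL) in WT libraries, again without overlap (log2 1.52 with NULL virus, SE 0.10, adjusted p = 8.81e-04). Uba7 had 381 (FL), 399 (M), 477 and 455 (NULL) normalized counts in KO cells and 417 (FL), 413 (M), 329.5 and 353 (NULL) in WT cells, and the genotypes overlapped. Herc6 had 490.2 (FL), 518 (M), 551 and 599 (NULL) in KO cells and 496 (FL), 541 (M), 397 and 428 (NULL) in WT cells, overlapping too. Neither passed with NULL virus (log2 0.45, adjusted p = 0.0636, and log2 0.48, adjusted p = 0.0601). Trim25, a ligase that activates the RNA sensor Ddx58 and can also attach Isg15, was nearly equal in the NULL pairs, at 1999 and 1903 in KO and 1941 and 1957 in WT (log2 difference 0.0011, 95% interval -0.17 to 0.17).

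Of the 8 antiviral effectors, 5 rose with NULL virus, 0 fell and 3 did not pass. At an unadjusted p below 0.05 (limma) there were 7 of 8. The share of all tested genes at that unadjusted threshold was not counted for any comparison. Rsad2 (viperin, which makes a chain-terminating nucleotide) was at 292 (FL), 404 (M), 422 and 371 (NULL) normalized counts in KO libraries and at 183 (FL), 299 (M), 85.3 and 96.5 (NULL) in WT libraries. Its neighbour Cmpk2, a mitochondrial nucleotide kinase, was at 149 (FL), 211 (M), 189 and 184 (NULL) in KO and at 114 (FL), 161 (M), 64.2 and 60.4 (NULL) in WT libraries. For both, the WT M library reached into the range of the KO libraries and the WT NULL libraries were the lowest. These genes lie back to back on chromosome 12 of GRCm38 with starts 12752 bases apart (Rsad2 at chr12:26442746-26456452, minus strand; Cmpk2 at chr12:26469204-26479837, plus strand) and with no coding gene between. With NULL virus Rsad2 rose 4.33-fold (adjusted p = 0.0095) and Cmpk2 2.96-fold (adjusted p = 0.0190).

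Bst2 (tetherin, which holds budding virus at the membrane) was at 16521 (FL), 17535 (M), 18884 and 18799 (NULL) in KO libraries and 11847 (FL), 9535 (M), 7817 and 8102 (NULL) in WT libraries. Mx2, of the dynamin-like GTPase family and annotated in GENCODE M21 as a polymorphic pseudogene, was at 582 (FL), 645 (M), 741 and 828 (NULL) in KO and 456 (FL), 376 (M), 272 and 318 (NULL) in WT libraries. Neither gene had overlap between the genotypes, and in both the WT NULL libraries were the lowest. Bst2 rose 2.37-fold with NULL virus (SE 0.11 on the log2 scale, adjusted p = 0.0028), Mx2 2.66-fold (adjusted p = 0.0048) and Samd9l, a restriction factor that ran from 3370.1 to 3995 in KO and from 2188 to 2723 in WT libraries, 1.81-fold (adjusted p = 0.0092).

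Ifitm3, which blocks fusion of virus in endosomes, was at 21863 and 22251 in KO NULL and 12196 and 13115 in WT NULL cells (log2 0.80, adjusted p = 0.0704). The exonuclease gene Isg20 differed by a log2 of 0.32 (adjusted p = 0.38). Mx1, whose C57BL/6 allele is known to be non-functional, was low throughout, at 68.5 (FL), 117 (M), 40.2 and 49.4 (NULL) in KO and 18.1 (FL), 37.8 (M), 19.0 and 12.9 (NULL) in WT libraries (log2 1.45 with NULL virus, adjusted p = 0.13). Its KO libraries all lay above its WT libraries, and KO M was the highest.

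**Figure D2:**
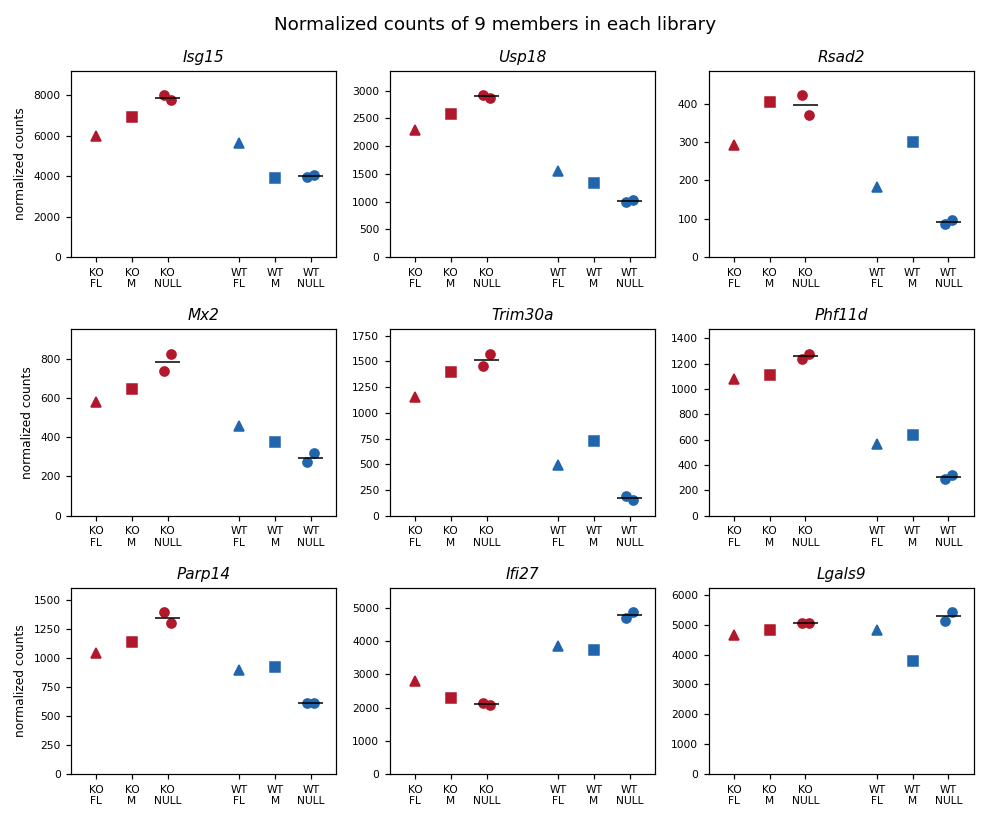
Normalized counts (linear axis from 0) of 9 members in each library, with KO in red left of WT in blue, triangles for FL, squares for M, circles for the NULL libraries and a line at their mean. Trim30a and Phf11d lie lowest in WT NULL, Ifi27 lies highest there, and Lgals9 is lowest in WT M at 3787.

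Of 6 genes of ADP-ribosylation and ubiquitin ligation, 5 rose with NULL virus and 1 (Trim21, the cytosolic antibody receptor) did not pass (log2 0.40, adjusted p = 0.25). Trim30a, a ligase known to restrain Toll-like receptor signalling, was at 1149.8 (FL), 1397 (M), 1454 and 1577 (NULL) in KO libraries and at 493 (FL), 729 (M), 190.4 and 154 (NULL) in WT libraries (log2 3.14 with NULL virus, SE 0.21, adjusted p = 8.81e-04). Every KO library was above every WT library, and the WT NULL libraries were far below WT FL and WT M. Trim30a has close paralogs, and reads shared with them could be split by the counting: Trim30d stood at 28.6 and 20.0 in KO NULL and 6.15 and 2.39 in WT NULL, and Trim30b and Trim30c at 7.09 or less in all libraries. Parp14, a mono-ADP-ribosyltransferase, was at 1045 (FL), 1139 (M), 1396 and 1298 (NULL) in KO and 898 (FL), 924 (M), 614 and 609 (NULL) in WT libraries (log2 1.14 with NULL virus, SE 0.088, adjusted p = 0.0016).

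Parp9 and Dtx3l encode partners of an ADP-ribosylating ubiquitin ligase and overlap head to head on chromosome 16, by 682 bases (Dtx3l at chr16:35926511-35939151, minus strand; Parp9 at chr16:35938470-35972605, plus strand). With NULL virus Parp9 rose 1.6-fold (adjusted p = 0.0357) and Dtx3l 1.77-fold (adjusted p = 0.0100). The sources used here do not say whether the counting used strand, so reads of the overlap may be shared. Parp12, another transferase of this kind, rose 1.58-fold (adjusted p = 0.0198).

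Of 5 genes of nuclear bodies, chromatin and RNA editing, 3 rose. Phf11d, a PHD finger protein gene, was at 1076 (FL), 1107 (M), 1238 and 1279 (NULL) in KO libraries and at 562 (FL), 639 (M), 285 and 319.8 (NULL) in WT libraries, without overlap (log2 2.06 with NULL virus, SE 0.11, adjusted p = 3.15e-04). It also has close paralogs: Phf11b was at 70.9 and 60.9 in KO NULL and 14.5 and 6.45 in WT NULL. Helz2, a helicase coactivator gene, rose 1.51-fold (adjusted p = 0.0089) and Adar, which edits double-stranded RNA, 1.34-fold (adjusted p = 0.0380). The nuclear body genes Sp100 (log2 0.74, adjusted p = 0.0537) and Pml (log2 0.15, adjusted p = 0.44) did not pass.

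Among the other 11 members 5 rose and 1 fell. Ifi44, a GTP-binding protein gene, was at 5595 (FL), 6339 (M), 7686 and 7571 (NULL) in KO and 3942 (FL), 4170.5 (M), 3020.4 and 3175 (NULL) in WT libraries (log2 1.30, SE 0.086, adjusted p = 8.81e-04). Rtp4, a Golgi chaperone of receptors, was at 1254 (FL), 1452 (M), 1508 and 1488 (NULL) in KO and 1137 (FL), 1033 (M), 740.0 and 732 (NULL) in WT libraries (log2 1.02, adjusted p = 0.0038). For both, all KO libraries lay above all WT libraries. Lgals3bp, a secreted galectin ligand, was at 13228 (FL), 13234 (M), 14354 and 14267 (NULL) in KO and 10412 (FL), 7947 (M), 6703 and 6627 (NULL) in WT libraries, without overlap. It rose 2.15-fold (adjusted p = 0.0071), the pro-apoptotic Xaf1 1.83-fold (adjusted p = 0.0071) and Nmi, an interactor of Myc and STAT proteins, 1.59-fold (adjusted p = 0.0468). Tor3a, a torsin ATPase gene (log2 0.46), Shisa5 (log2 0.33), the partner of Nmi Ifi35 (log2 0.34), Epsti1 (log2 1.30, at 7.59 to 38.0 normalized counts in all libraries) and the galectin gene Lgals9 (log2 -0.062) did not pass, with adjusted p of 0.0561 to 0.80.

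Ifi27, a small hydrophobic membrane protein gene, ran the other way, at 2784 (FL), 2288 (M), 2145 and 2068 (NULL) normalized counts in KO libraries and 3858 (FL), 3717 (M), 4680.5 and 4869.8 (NULL) in WT libraries. Its highest KO library was below its lowest WT library, and the NULL pairs stood farthest apart (2.27-fold lower in KO, log2 -1.18, SE 0.10, adjusted p = 0.0026). Its relative Ifi27l2a rose in the same comparison, with 1257 and 1150.3 in KO NULL and 244 and 249 in WT NULL cells (4.86-fold, adjusted p = 3.79e-04).

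With IL-33, meaning FL and M libraries in both genotypes, 7 of 35 members were higher in KO than in WT cells and 2 were lower (4.35% of all tested genes passed, 2.76% upward and 1.6% downward). The median log2 difference was 0.41. Phf11d (1.82-fold, adjusted p = 0.0107), Usp18 (1.68-fold, adjusted p = 0.0145), Trim30a (2.11-fold, adjusted p = 0.0391), Bst2 (1.6-fold), Ifi44 (1.47-fold), Xaf1 (1.45-fold) and Samd9l (1.42-fold) rose. Ifi27 fell 1.5-fold (adjusted p = 0.0301) and Trim25 1.3-fold (adjusted p = 0.0380). Trim25 was at 1698 (FL) and 1749.5 (M) in KO cells and at 2197 (FL) and 2272 (M) in WT cells. More members passed without WT FL or WT M, and so did a larger share of all genes. All 9 calls were lost without any 1 of the 4 KO libraries, and most without either WT NULL library, where a smaller share of all genes passed. The members' median log2 difference was 0.51 without WT FL, 0.28 without WT M, 0.47 without KO FL and 0.32 without KO M. The NULL libraries do not enter this difference, so leaving 1 of them out could not change the median of 0.41.

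**Figure D3:**
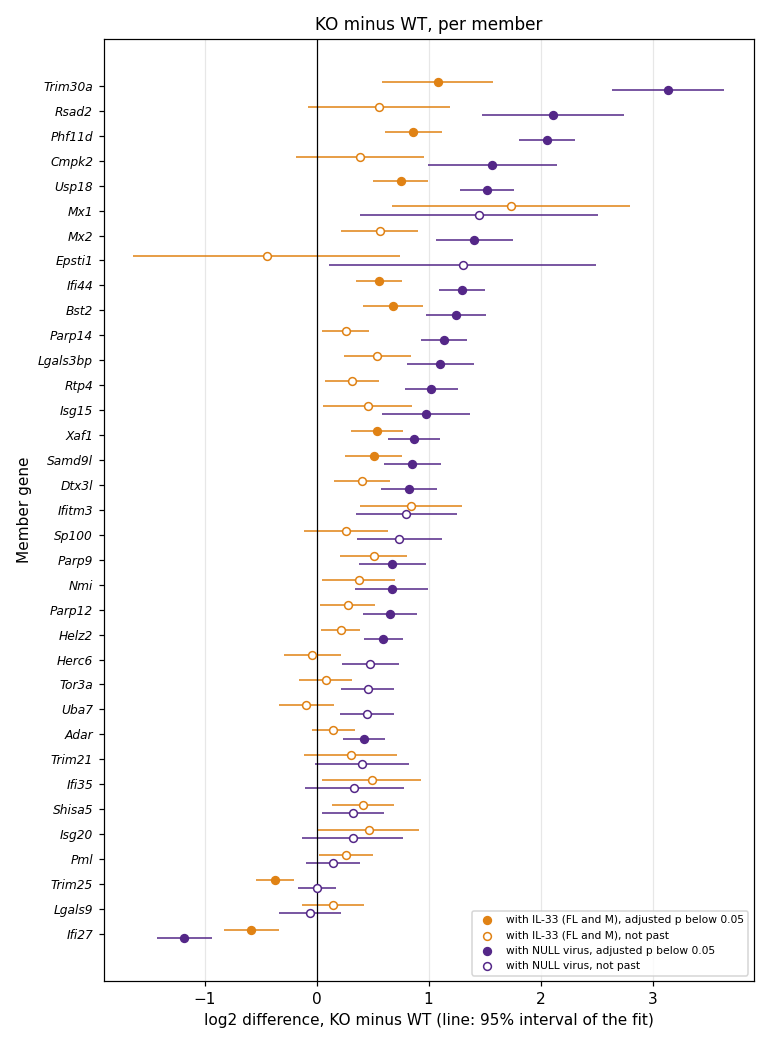
Fitted log2 difference of KO minus WT for each of the 35 members (down the page, ordered by the difference with NULL virus), with IL-33 in orange and with NULL virus in purple, and lines for the 95% interval. Filled points passed an adjusted p of 0.05: Trim30a is at 1.08 with IL-33 and at 3.14 with NULL virus.

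Averaged over the inserts, 24 members were higher in KO cells and 1 lower (11.9% of all tested genes passed, 6.86% upward and 5.08% downward), with a median log2 of 0.59. Taken library by library, 25 of 35 members had all 4 KO libraries above all 4 WT libraries (11.5% of all tested genes), and 1, Ifi27, had them all below (9.0%). Mx1 (3.02-fold, adjusted p = 0.0231), Ifitm3 (1.77-fold, adjusted p = 0.0122), Shisa5 (1.29-fold, adjusted p = 0.0336) and Sp100 (1.41-fold, adjusted p = 0.0343) passed here and not with NULL virus. Fewer of the 25 calls passed without KO M, KO NULL 1, KO NULL 2 or WT NULL 1, as did a smaller share of all genes. The members' median log2 difference in those fits was 0.56 to 0.61.

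The next comparison sets IL-33 against NULL virus in wild-type cells. Taking FL and M as the 2 libraries of IL-33, 2 of 35 members rose and 0 fell. Over all tested genes 0.264% passed, 0.18% upward and 0.0837% downward. At an unadjusted p below 0.05 (limma) there were 18 members, and the share of all genes at that threshold was not counted. The median log2 difference was 0.22, against -0.015 over all genes. Trim30a rose 3.49-fold (log2 1.80, SE 0.21, limma adjusted p = 0.0330) and Phf11d 1.98-fold (log2 0.99, SE 0.11, adjusted p = 0.0227). Next in rank and not past the threshold were Parp14 (log2 0.58, adjusted p = 0.0763), Rtp4 (0.56, adjusted p = 0.0937) and Usp18 (0.52, adjusted p = 0.10). The WT FL and WT M libraries both lay above both WT NULL libraries for 22 members (24.0% of all tested genes) and below them for 2, Ifi27 and Lgals9 (27.9%). Both calls were lost without KO FL, without KO M or without any of the 4 NULL libraries. Without WT FL or WT M, which leaves 1 IL-33 library in WT, 21 members (48.3% of all genes) and 15 members (7.31% of all genes) passed.

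FL and M in WT cells are a single library each, so the next tests assume that it varies like the NULL pairs, and the difference between FL and M itself was not tested. Against the WT NULL pair, 17 members were higher and 1 lower with FL (7.39% of all tested genes passed, 3.5% upward and 3.9% downward), and 15 were higher and 6 lower with M (49.3% passed, 22.5% upward and 26.8% downward). Trim30a rose 2.87-fold with FL (adjusted p = 0.0018) and 4.24-fold with M (adjusted p = 3.75e-05), Phf11d 1.86-fold and 2.11-fold (adjusted p = 0.0036 and 1.74e-04), and Rsad2 2.0-fold and 3.27-fold (adjusted p = 0.0127 and 1.54e-04). The rises with FL held 2 of 5 genes of the ISG15 system, 5 of 8 antiviral effectors, 4 of 6 ADP-ribosylation and ubiquitin genes and 3 of 5 nuclear genes, and those with M held 3, 4, 2 and 2 of the same groups. Isg15 was 1.4-fold higher with FL (adjusted p = 0.0025), and its log2 difference with M was -0.034 (95% interval -0.15 to 0.082). Sp100 stood at 1855 with FL and 1291 with M, against 1361 and 1366 with NULL. Fewer of the 18 calls for FL passed without either KO NULL library, as did a smaller share of all genes. The members' median log2 difference with FL was 0.29, and the KO NULL libraries do not enter it, so leaving them out could not change it.

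The members lower in WT M were Ifi35, Lgals9, Ifitm3, Isg20, Ifi27 and Shisa5, and 6 of 35 is a smaller share than the 26.8% of all tested genes that were lower in that library. Ifi35 was at 952 with M, against 1471 with FL and 1461 and 1485 with NULL (log2 -0.63 for M against NULL, SE 0.065, adjusted p = 2.96e-04). Ifitm3 was at 9392 with M, 14604 with FL and 12196 and 13115 with NULL (log2 -0.43, adjusted p = 6.14e-04). Lgals9, one of the promoters with an ISRE match, was at 3787 with M, 4813 with FL and 5135 and 5421 with NULL (log2 -0.48, adjusted p = 4.21e-04). Isg20 was at 217 with M, 323 with FL and 312 and 341 with NULL (log2 -0.59, adjusted p = 0.0062), and Shisa5 at 5319, 6703 and 6418 and 6057 in the same order (log2 -0.23, adjusted p = 0.0152). The sign of Shisa5 turned with quantile normalization, to a log2 of 0.0065. Ifi27 was lower with both inserts, at a log2 of -0.31 with FL (adjusted p = 0.0256) and -0.36 with M (adjusted p = 0.0021). In the other direction Trim25 and Herc6 were higher with M (log2 0.22, adjusted p = 0.0238, and log2 0.39, adjusted p = 0.0211), and Epsti1 was 3.98-fold higher with M (adjusted p = 0.0075). This library is the one with more macrophage and mesothelial and fewer fibroblast transcripts, and the part of those cells in these values was not tested.

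**Figure D4:**
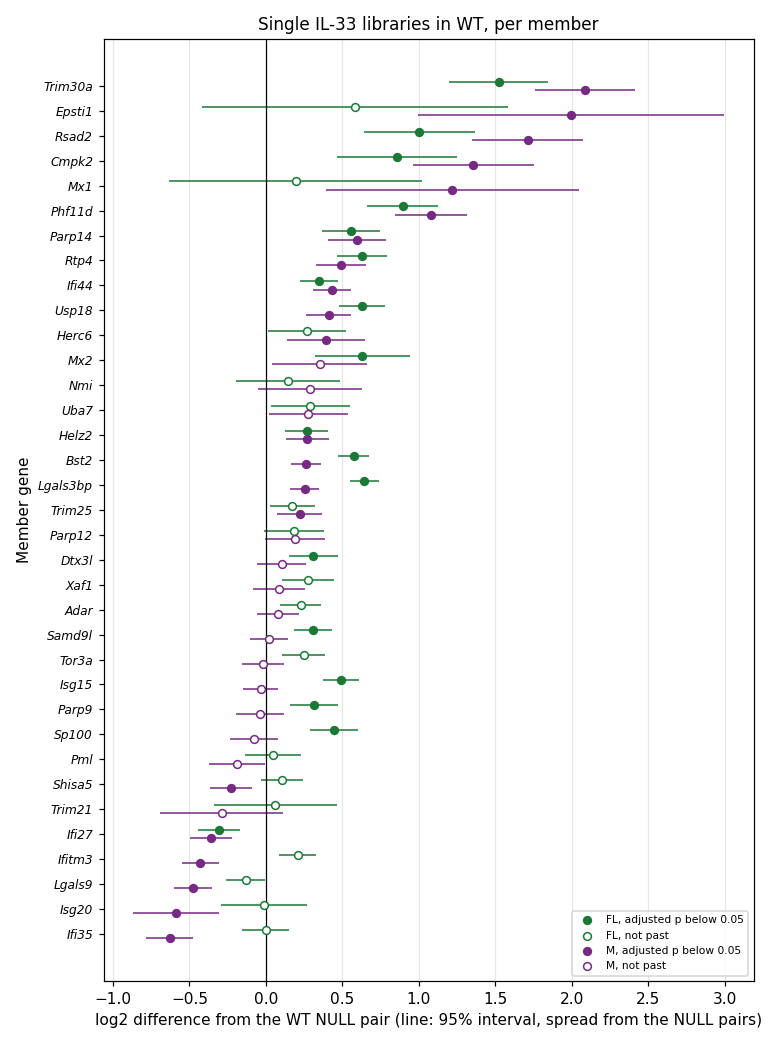
Log2 difference of the WT FL library (green) and the WT M library (purple) from the WT NULL pair for each of the 35 members, ordered by the value with M, with 95% intervals based on the scatter within the NULL pairs. Filled points passed an adjusted p of 0.05: Ifi35, for example, is at -0.0017 with FL and -0.63 with M.

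In KO cells 0 of the 35 members passed for IL-33 against NULL in the fit with 4 groups (limma, 0.0193% of all tested genes passed). At an unadjusted p below 0.05 there were 8 members, and the share of all genes at that threshold was not counted. The median log2 difference was -0.18 and 31 of 35 members had a negative sign. Both KO IL-33 libraries lay below both KO NULL libraries for 26 members (22.0% of all tested genes) and above them for 3, Ifi27, Mx1 and Pml (20.6%). Against the KO NULL pair, the KO FL library passed at 2 members (0.238% of all tested genes, 0.0708% upward and 0.167% downward), both lower: Ifi44 (log2 -0.45, SE 0.052, adjusted p = 0.0447) and Isg15 (log2 -0.39, SE 0.049, adjusted p = 0.0455). Both calls were lost without KO NULL 1 or KO NULL 2, and 1 was lost without WT M or WT NULL 2. The KO M library passed at 0 (limma; 10 at an unadjusted p below 0.05; 0.0322% of all tested genes passed, 0.0258% upward and 0.00644% downward). For 31 of 35 members the KO FL library was below the KO M library, by a median log2 of -0.095 over the members, against 0.0075 over all tested genes, of which 51.9% were higher in KO FL. The members' median absolute difference of 0.095 was smaller than the 0.119 of all genes. Il33 itself was at 1080221 in KO FL and 81109.9 in KO M, and its part in that difference was not tested.

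The IL-33 effects in KO and WT cells share no library, and their difference was tested directly. None of the 35 members passed (limma, 0 at an adjusted p below 0.05). Over all tested genes 0.129% passed, 0.0386% upward and 0.0902% downward. At an unadjusted p below 0.05 there were 21 members, and the share of all genes at that threshold was not counted. The difference was negative for 27 members, with a median log2 of -0.38. Phf11d had the smallest p, with an effect of -0.20 in KO and 0.99 in WT (difference -1.19, SE 0.15, 95% interval -1.55 to -0.83, adjusted p = 0.0767). For Trim30a the effects were -0.26 in KO and 1.80 in WT (difference -2.06, SE 0.30, adjusted p = 0.10), and for Parp14 -0.30 and 0.58 (difference -0.88, SE 0.12, adjusted p = 0.10). Ifi44 and Usp18 followed, with differences of -0.75 (adjusted p = 0.18) and -0.77 (adjusted p = 0.27). In a fit with 6 groups, where only the NULL pairs give the spread, 25 members passed, 24 of them with a lower effect in KO, while 20.5% of all tested genes passed. Without WT FL 22 passed (36.2% of all genes) and without WT M 13 (3.19% of all genes), while leaving out any other library gave 0. Epithelial markers moved in this comparison too: 2 of 4 tested passed, both with a higher effect in KO, and their part in the members' values was not tested. The sign of this difference is also the sign of the smaller KO to WT gap with IL-33 described above, since it is the same contrast.

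**Figure D5:**
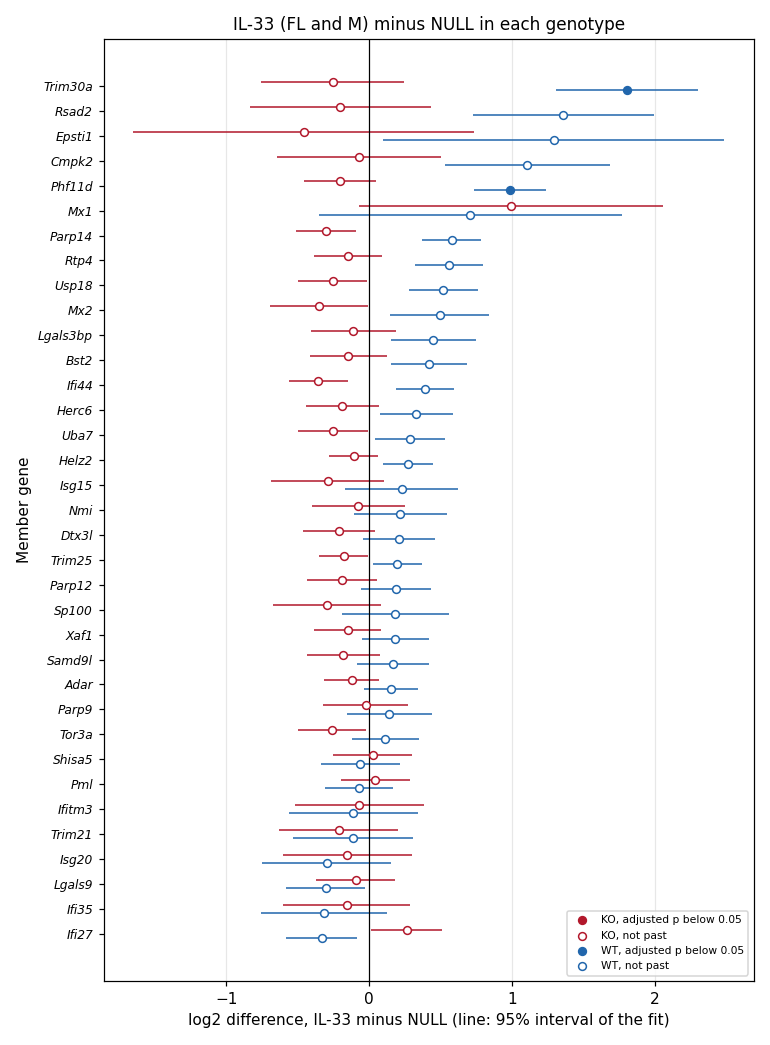
Fitted log2 difference of IL-33 (FL and M) minus NULL for each of the 35 members, with KO in red above WT in blue, ordered by the value in WT, with 95% intervals of the fit. Filled points passed an adjusted p of 0.05: only Trim30a (1.80) and Phf11d (0.99) in WT did.

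The other genes of the pathway were read from lists of ligands, receptors and kinases, sensors and inhibitors. The 9 interferon genes were at or near 0: Ifnb1 was listed at 0 (FL), 2.21 (M), 2.37 and 2.13 (NULL) in KO and 2.13 (FL), 1.01 (M), 0 and 0 (NULL) in WT libraries, Ifng at 1.07 in WT FL and 0 elsewhere, and the other 7 at 0 in all 8. Of 12 receptor and JAK-STAT genes, 0 passed between KO NULL and WT NULL (limma, 4 at an unadjusted p below 0.05), against 4.28% of all tested genes. The share of all genes at the unadjusted threshold was not counted. Stat2 was at 3779 (FL), 3924 (M), 4415 and 4458 (NULL) in KO and 4486 (FL), 2308 (M), 3379 and 3166 (NULL) in WT libraries. Against the WT NULL pair, Stat2 was higher with FL (log2 0.46, adjusted p = 0.0065) and lower with M (log2 -0.50, adjusted p = 5.23e-04).

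Of 13 tested nucleic acid sensors, 4 rose in KO NULL cells and 0 fell (limma), against 2.58% upward and 1.7% downward over all tested genes. The 4 were the sensor gene Zbp1 (11.9-fold, adjusted p = 1.49e-04), the DNA exonuclease gene Trex1 (1.67-fold, adjusted p = 0.0177), the RNA sensor gene Ifih1 (1.82-fold, adjusted p = 0.0360) and Tmem173, which encodes STING (1.44-fold, adjusted p = 0.0443). Zbp1, a sensor of Z-form nucleic acid, was at 1222 (FL), 1423 (M), 1649.9 and 1665 (NULL) in KO and 527 (FL), 635 (M), 149 and 128 (NULL) in WT libraries. Its IL-33 effect differed between KO and WT (limma, difference -2.39, SE 0.20, adjusted p = 0.0124). That call was lost without KO FL, without KO M or without WT NULL 2, as were the calls of all other genes. For Zbp1 the other fits were not followed. Of 6 feedback inhibitors, such as Socs1, 0 passed (limma, 2 at an unadjusted p below 0.05). Of 29 tested relatives of the members, 7 rose and 1, Shisa4, fell in KO NULL cells, beside the same 2.58% and 1.7% of all tested genes. These lists too were chosen with earlier results of these data known. Ube2l6, the conjugating enzyme of Isg15, was at 2147 (FL), 2173 (M), 2497 and 2489 (NULL) in KO and 1648 (FL), 1731 (M), 1232 and 1345 (NULL) in WT libraries, without overlap (log2 0.95 with NULL virus, SE 0.078, adjusted p = 0.0020). The nuclear body genes Sp140 and Sp110 rose 2.64-fold and 1.65-fold (adjusted p = 0.0076 and 0.0128).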

How the data were processed

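RNA of 8 libraries titled as primary mouse lung fibroblasts was sequenced by the authors. The deposited values are signal in the sense of normalized counts per gene. Per the submitters' processing notes Salmon, DESeq2 and GRCm38.p6 were used, with no versions or settings given. The 2 deposited tables differed in 2 of 434648 cells, by at most 6.46e-15 of the value. From the most frequent low value, 50.4% to 70.9% of values up to 12 were whole multiples within 0.02, so whole reads were not recovered and depth in reads is not used here.

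Identifiers were matched without their version, since the version in GENCODE M21 was equal for 33 of 35 members. Values were taken to log2 after adding 1, so changes of low genes are understated. The 15527 genes with a mean of at least 10 were tested with two-sided tests of limma-trend (version 3.58.1 under R 4.3.3), with Benjamini-Hochberg adjustment over all of them and a threshold of 0.05. The main fit had 4 group means (genotype by IL-33 or NULL); single IL-33 libraries were tested in a fit of 6. The fits were tested on simulated data. Members get values in every library if called for IL-33 in WT or for the difference, among the 5 smallest p there or the 5 largest differences with NULL virus, in the ISG15 system, or called against the median. The members and lists were chosen with earlier results of these data known. The unseparated lung cells were not analysed here. Tables and figures were made with Python 3.11.15, pandas 2.3.3, numpy 2.4.6 and matplotlib 3.10.9.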

Additional observations from a re-analysis of the deposited data

How the results depend on the processing

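The fits were repeated with 0.5 or 8 added before the log, with the filter dropped or raised to a mean of 50, with TMM factors, with quantile normalization, with a replicate block, with 6 groups (for single members, chosen after seeing the data), and without each library. Of the 98 calls on single members, every one kept its sign except Shisa5 in WT M (log2 0.0065 with quantile normalization). Member counts changed as follows, and the share of all genes that passed changed too, not always in the same direction. For KO with IL-33 that share was 4.35% in the main fit and 1.65% with no filter. The cause was not tested. With no filter, FL in WT gave 8 calls and KO with IL-33 5, where smaller shares of all genes passed than in the main fit. FL in KO gave 1, where a larger share of all genes passed. Quantile normalization gave 4 for IL-33 in WT, where 0.232% of all genes passed, against 0.264% in the main fit. With 6 groups, 26 passed for IL-33 in WT (22 higher), 1 for IL-33 in KO, 25 for the difference and 29 for KO with IL-33, where 37.4%, 0.174%, 20.5% and 32.4% of all genes passed. Deviations of same-numbered NULL libraries were hardly correlated (0.023 over 15527 genes), and the labels do not say whether the numbers mark a shared culture or batch. The replicate block gave 0 for IL-33 in WT, 0 for FL in KO, 9 for FL in WT and 1 for KO with IL-33. A smaller share of all genes passed in each of these too.

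Leaving out 1 library gave 6 to 32 calls for KO with NULL virus, 15 to 32 for KO averaged, 0 to 27 for KO with IL-33, 0 to 21 for IL-33 in WT, 0 for IL-33 in KO and for M in KO, 0 to 22 for the difference, 10 to 18 for FL in WT, 20 to 23 for M in WT and 0 to 2 for FL in KO. The share of all tested genes that passed varied with the library left out too, so these ranges are not particular to the members. For KO with NULL virus the members' median log2 difference ran only from 0.75 to 0.83. With 2 libraries or 1 in an arm, a call that is lost says little about the size of the change.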
